A study of Homo sapiens with 22 samples.

Results

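BHLHE40, BHLHE41 and the inhibitor of DNA binding genes ID1, ID2, ID3 and ID4 were followed in 11 human neuroblastoma cell lines cultured in hypoxia (1% O2) or in normoxia (20% O2) for 18 h. The members were all probesets of the array that name 1 of these 6 genes and no other, which gave 15 of 54675 probesets and 6 of 19775 genes. BHLHE40 had 2 probesets, BHLHE41 had 4, ID1 had 1, ID2 had 2, ID3 had 1 and ID4 had 5. Each cell line was profiled on 1 Affymetrix HG-U133 Plus 2.0 array in each condition, 22 arrays in all, so no line had a replicate array within a condition. The hypoxic and the normoxic group each held GI-LI-N, ACN, SHEP-2, SK-N-BE2(C), IMR-32, SK-N-F1, LAN-1, SK-N-SH and GI-ME-N, together with 2 lines labelled SHEP21N. SHEP21N is a clone of the SHEP line with an inducible MYCN transgene. One SHEP21N line is labelled as not overexpressing MYCN and was kept with 50 ng/mL tetracycline, and the other (SHEP21N_MYC) is labelled as overexpressing it. The 11 lines served as the replicates of each condition, although 2 of them are the same clone, SHEP21N. The 3 SHEP lines are related to each other, and the arrays of GI-LI-N, IMR-32 and those labelled SK-N-SH are closely alike.

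BHLHE40 and BHLHE41 encode basic helix-loop-helix (bHLH) proteins of the Orange family. These proteins sit on the E-box CACGTG as dimers and repress transcription, and they are known to dampen the circadian clock by opposing CLOCK and BMAL1. Both genes are known targets of the hypoxia-inducible factors (HIF), which bind the core sequences ACGTG and GCGTG. The ID proteins work in another way. They have the helix-loop-helix part but no basic region, so they bind no DNA, and they hold E proteins such as TCF3, TCF4 and TCF12 in inactive pairs. ID1, ID2 and ID3 are known as direct targets of bone morphogenetic protein (BMP) signalling through SMAD1 and SMAD5, and in the nervous system ID proteins hold back the differentiation of progenitor cells.

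The 250 bases upstream of the start of each gene (RefSeq, GRCh38.p14, 5' to 3' on the strand of the gene) are shown for the 2 Orange genes, for ID1 and for ID4, to set windows with an E-box beside one with GCGTG alone and one with none of these motifs. All 6 genes matched the promoter table. Capitals mark the E-box CACGTG and the cores ACGTG and GCGTG, or their reverse complements, found by searching both strands. Each CACGTG also holds an ACGTG on either strand. BHLHE40 lies on chromosome 3 (chr3:4979187-4979436, plus strand), BHLHE41 on chromosome 12 (chr12:26125038-26125287, minus strand), ID1 on chromosome 20 (chr20:31605039-31605288, plus strand) and ID4 on chromosome 6 (chr6:19837120-19837369, plus strand).
BHLHE40: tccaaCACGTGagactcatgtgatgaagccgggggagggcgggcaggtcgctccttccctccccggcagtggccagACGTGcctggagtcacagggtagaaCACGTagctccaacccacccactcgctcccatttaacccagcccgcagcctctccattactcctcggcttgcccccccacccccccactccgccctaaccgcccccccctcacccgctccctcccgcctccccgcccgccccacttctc
BHLHE41: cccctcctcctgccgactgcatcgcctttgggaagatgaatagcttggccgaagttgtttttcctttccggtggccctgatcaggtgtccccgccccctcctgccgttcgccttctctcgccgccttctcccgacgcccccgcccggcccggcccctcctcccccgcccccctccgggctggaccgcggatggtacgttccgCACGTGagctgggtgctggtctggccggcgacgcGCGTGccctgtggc
ID1: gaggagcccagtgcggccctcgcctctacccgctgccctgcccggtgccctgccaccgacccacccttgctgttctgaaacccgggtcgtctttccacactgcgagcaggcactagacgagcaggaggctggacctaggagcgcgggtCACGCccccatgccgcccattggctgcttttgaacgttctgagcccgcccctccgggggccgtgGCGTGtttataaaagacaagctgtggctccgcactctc
ID4: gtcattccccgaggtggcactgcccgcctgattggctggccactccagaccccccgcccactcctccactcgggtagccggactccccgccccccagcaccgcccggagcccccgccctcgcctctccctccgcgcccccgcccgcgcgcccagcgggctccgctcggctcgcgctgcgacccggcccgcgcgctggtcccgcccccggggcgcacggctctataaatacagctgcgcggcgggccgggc

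The window of BHLHE40 held CACGTG at bases 245 to 240 upstream of the start, and 2 further ACGTG cores, 1 on each strand. The window of BHLHE41 held CACGTG much closer to the start, at bases 48 to 43, and GCGTG at bases 14 to 10. Over all 35116 promoters of the same length, 6.34% held CACGTG. ID1 held GCGTG on both strands, ID2 held 1 ACGTG core and GCGTG on both strands, and ID3 held GCGTG at bases 50 to 46 and at bases 8 to 4. ID4 held none of them. Of all promoters, 43.2% held ACGTG or GCGTG, 18.5% held ACGTG and 32.2% held GCGTG. The sequence GGCGCC, which SMAD proteins of the BMP branch are known to bind, was in none of the 6 windows and in 16.4% of all promoters. These matches describe the letters of the windows and not sites in use.

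Some facts about the arrays bear on several of the values below. The normoxic SHEP21N_MYC array had a ratio of the 3' to the 5' control probeset of 67.3 for GAPDH and 94.0 for ACTB, against at most 1.40 and 5.05 on the other 21 arrays, a sign of shortened RNA. The 4 SHEP21N arrays had a lowest signal of 3.3, and the others at most 0.80. The normoxic arrays of SK-N-SH, GI-LI-N and IMR-32 correlated at r = 0.934 to 0.942 over 28515 probesets, and all other pairs of lines at 0.556 to 0.885. MYCN had a signal of 6 in hypoxia and 19 in normoxia in SHEP21N_MYC, and 12.7 in hypoxia and 6 in normoxia in the SHEP21N line without overexpression, against 35223 in hypoxia and 33504 in normoxia in SK-N-SH, the line from which SHEP cells are known to derive. Whether the MYCN probeset lies within the transgene was not tested. SK-N-SH is known as a line without MYCN amplification, so its arrays go against what is known of it, and they are called here by their label. Signals are printed as deposited, while all changes, folds and counts of lines higher or lower were taken after each signal had been divided by its array median.

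BHLHE40 was the member with the clearest response. At its brightest probeset (201170_s_at, the one with the highest mean log2 signal) the level over the array median was higher in hypoxia in 11 of 11 lines and at least 2-fold higher in 7. The hypoxic signal was 1109 in GI-LI-N, 5326 in ACN, 4859 in SHEP-2, 138 in SK-N-BE2(C), 811 in IMR-32, 1986 in SK-N-F1, 1458 in LAN-1, 204 in SK-N-SH, 2742 in GI-ME-N, 2898 in SHEP21N and 2173 in SHEP21N_MYC. The normoxic signal was 303 in GI-LI-N, 1944 in ACN, 2672 in SHEP-2, 95.6 in SK-N-BE2(C), 158 in IMR-32, 409 in SK-N-F1, 264 in LAN-1, 20.2 in SK-N-SH, 1252 in GI-ME-N, 682 in SHEP21N and 1311 in SHEP21N_MYC. The conditions overlapped across lines, since normoxic SHEP-2, ACN and GI-ME-N lay above several hypoxic lines, but within each line the hypoxic signal was the higher one. On the scale of log2 (signal over array median), the mean change, hypoxia minus normoxia, was 1.71 ± 0.88 (SD, n = 11 lines), a geometric mean fold of 3.27. The smallest change was 0.41 in SK-N-BE2(C) and the largest was 3.48 in SK-N-SH. The latter rests on a dim normoxic signal of 20.2, and with signals below 50 set to 50 the mean change was 1.59.

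The change of BHLHE40 passed the limit of an adjusted p of 0.05 in the gene table (limma with the cell line as a block, adjusted p = 0.0278 over 19775 genes) and missed it in the table of all probesets (adjusted p = 0.0560 over 54675). Of all genes in that table, 0.147% were called higher and 0.0152% lower, and among all probesets 0.0457% were called higher. By an exact permutation test that flips the signs of the 11 within-line changes, two-sided, p was 0.000977, the smallest this test can give here. One such test was made for each of the 6 genes, with no adjustment. The gene-table call was lost when GI-LI-N, ACN, IMR-32, SK-N-F1, LAN-1 or SHEP21N was left out (adjusted p = 0.0653 to 0.0917), when the 3 SHEP lines were averaged (0.0747), when both SHEP21N lines were left out (0.0967), when SK-N-SH, GI-LI-N and IMR-32 were averaged (0.124) and when all probesets of a gene were averaged (0.115). The mean change stayed between 1.53 and 1.84 over the leave-one-out fits. BHLHE40 is also a gene of the hypoxia signature that was chosen on these same arrays, under its older symbol BHLHB2, so its direction here is not independent evidence.

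The other probeset of BHLHE40, 201169_s_at, was dimmer and more scattered. Its signal ran from 4.17 through a median of 177 to 553 in hypoxia and from 4.36 through a median of 20.7 to 312 in normoxia. It was higher in hypoxia in 10 of 11 lines, with SK-N-BE2(C) the exception at a log2 change of -1.74, and its mean log2 change was 2.19 ± 1.99 (SD, n = 11; limma, adjusted p = 0.366). The probesets went the same way in 10 of 11 lines. With signals below 50 set to 50, both passed the limit over all probesets (adjusted p = 0.00326 for the brightest and 0.0259 for the other).

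BHLHE41, which represses through the same E-box, had a level over the array median that was higher in hypoxia in 9 of 11 lines at its brightest probeset (221530_s_at), and at least 2-fold higher in 6. The hypoxic signal was 45.3 in GI-LI-N, 4222 in ACN, 388 in SHEP-2, 583 in SK-N-BE2(C), 5.75 in IMR-32, 2990 in SK-N-F1, 273 in LAN-1, 36.7 in SK-N-SH, 2420 in GI-ME-N, 1660 in SHEP21N and 1001 in SHEP21N_MYC. The normoxic signal was 36.7 in GI-LI-N, 2734 in ACN, 183 in SHEP-2, 604 in SK-N-BE2(C), 5.71 in IMR-32, 401 in SK-N-F1, 67.4 in LAN-1, 16.6 in SK-N-SH, 1677 in GI-ME-N, 733 in SHEP21N and 576 in SHEP21N_MYC. IMR-32 was near the bottom of the scale in both conditions, and the conditions overlapped across lines. GI-LI-N and SK-N-SH were also below the array median in both conditions. SK-N-SH, at a log2 change of 1.29, is counted as 2-fold higher on signals below 50. The largest log2 changes were 2.77 in SK-N-F1 and 1.93 in LAN-1, and SK-N-BE2(C) was at -0.17 and IMR-32 at -0.07. The mean log2 change was 0.93 ± 0.88 (SD, n = 11), with an exact sign-flip p of 0.0039, and it did not pass the adjusted limit (limma, adjusted p = 0.243 over genes and 0.422 over probesets). With signals below 50 set to 50, the mean change was 0.80.

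The 3 dimmer probesets of BHLHE41 did not follow the brightest one closely. Their mean log2 changes were 0.32 ± 0.89 for 231243_s_at, 0.63 ± 2.85 for 223185_s_at and -0.02 ± 1.94 for 231242_at (SD, n = 11 each). They had the sign of the brightest probeset in 6, 7 and 7 of 11 lines. Their median signals were 95.8, 55.7 and 48.3 in hypoxia and 78.9, 28.7 and 22.2 in normoxia. None had an adjusted p under 0.05. The mean of 223185_s_at was 0.30 without SHEP21N_MYC, 0.22 without LAN-1, 1.08 without SHEP-2 and 1.08 without IMR-32. That of 231243_s_at was 0.18 without GI-LI-N and 0.49 without SK-N-SH, and that of 231242_at lay on either side of 0, from -0.33 without SK-N-F1 to 0.31 without IMR-32.

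**Figure D1:**
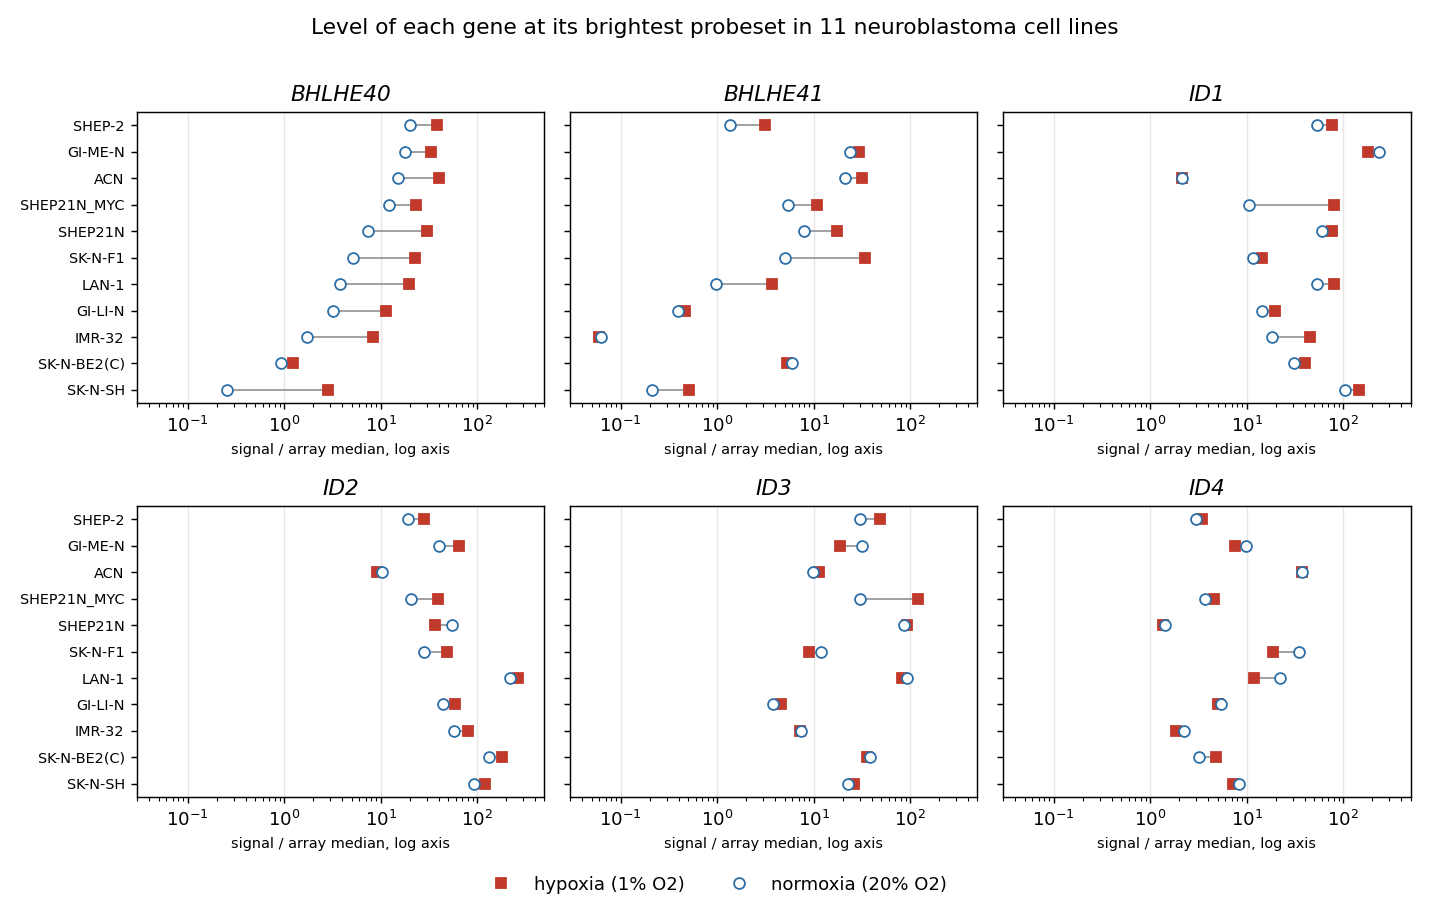
Signal over the array median (log axis, no unit) of the brightest probeset of each gene in hypoxia (squares, 1% O2) and normoxia (circles, 20% O2), 1 array per point, with a line joining the arrays of a cell line and the cell lines ordered by normoxic BHLHE40. The hypoxic square lies to the right in 11 of 11 lines for BHLHE40 and in 9 of 11 for BHLHE41, ID1 and ID2, while for ID4 it lies to the left in 8.

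ID1, an inhibitor of E proteins, had a single probeset (208937_s_at), and its level over the array median was higher in hypoxia in 9 of 11 lines. The hypoxic signal was 1917 in GI-LI-N, 282 in ACN, 9696 in SHEP-2, 4518 in SK-N-BE2(C), 4485 in IMR-32, 1265 in SK-N-F1, 5956 in LAN-1, 10584 in SK-N-SH, 15093 in GI-ME-N, 7271 in SHEP21N and 7386 in SHEP21N_MYC. The normoxic signal was 1378 in GI-LI-N, 278 in ACN, 7202 in SHEP-2, 3191 in SK-N-BE2(C), 1681 in IMR-32, 925 in SK-N-F1, 3766 in LAN-1, 8272 in SK-N-SH, 16599 in GI-ME-N, 5569 in SHEP21N and 1130 in SHEP21N_MYC. Relative to the array median, only IMR-32 and SHEP21N_MYC reached 2-fold, GI-ME-N was lower and ACN was at a log2 change of -0.0075, and the conditions overlapped across lines. The mean log2 change was 0.63 ± 0.87 (SD, n = 11; exact sign-flip p = 0.0078), and it did not pass the adjusted limit (limma, adjusted p = 0.403 over genes and 0.575 over probesets). The change in SHEP21N_MYC was 2.93, on the pair whose normoxic array had the high control ratios. Without that line the mean was 0.40 ± 0.43 (SD, n = 10; exact sign-flip p = 0.0156). The part of RNA quality in the value of that line was not tested.

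ID2, reported in neuroblastoma as a gene activated by MYCN, which was not tested here, differed between the conditions by small amounts, with hypoxia the higher in most lines. At the brightest probeset (201565_s_at) the hypoxic signal was 5823 in GI-LI-N, 1222 in ACN, 3514 in SHEP-2, 20353 in SK-N-BE2(C), 7878 in IMR-32, 4294 in SK-N-F1, 19677 in LAN-1, 8642 in SK-N-SH, 5390 in GI-ME-N, 3446 in SHEP21N and 3615 in SHEP21N_MYC. The normoxic signal was 4174 in GI-LI-N, 1324 in ACN, 2592 in SHEP-2, 13566 in SK-N-BE2(C), 5346 in IMR-32, 2236 in SK-N-F1, 15160 in LAN-1, 7398 in SK-N-SH, 2848 in GI-ME-N, 5077 in SHEP21N and 2201 in SHEP21N_MYC. Relative to the array median it was higher in hypoxia in 9 of 11 lines, lower in SHEP21N and ACN, and in no line 2-fold different. The mean log2 change was 0.39 ± 0.43 (SD, n = 11; exact sign-flip p = 0.0186), which missed the adjusted limit (limma, adjusted p = 0.359 over genes and 0.556 over probesets). The largest change, 0.93, was in SHEP21N_MYC, the pair whose normoxic array had the high control ratios. Without that line the mean was 0.33 ± 0.41 (SD, n = 10; exact sign-flip p = 0.0371). The other probeset, 201566_x_at, had a mean log2 change of 0.32 ± 0.49 and was higher in 8 of 11 lines (0.47 with both SHEP21N lines left out).

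ID3, which pairs with the same E proteins, was split between lines. Its probeset (207826_s_at) had signals from 450 through a median of 1888 to 11024 in hypoxia and from 360 through a median of 2228 to 7953 in normoxia, and its level over the array median was higher in hypoxia in 6 of 11 lines. The mean log2 change was 0.18 ± 0.70 (SD, n = 11; exact sign-flip p = 0.494; limma, adjusted p = 0.804 over genes). The largest change, 1.97, was again in SHEP21N_MYC, with a signal of 11024 in hypoxia and 3283 in normoxia, and the lowest, -0.76, was in GI-ME-N. Without SHEP21N_MYC the mean was 0.0017. Without GI-ME-N it was 0.27. The part of RNA quality in the value of SHEP21N_MYC was not tested either.

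ID4, which is known to act differently from the other ID proteins in several tissues, was the 1 member whose mean lay below 0. At the brightest probeset (209291_at) the signal ran from 129 through a median of 516 to 4908 in hypoxia and from 132 through a median of 516 to 4832 in normoxia. Its level over the array median was lower in hypoxia in 8 of 11 lines, most in SK-N-F1 and LAN-1, both at a log2 change of -0.88, and highest in SK-N-BE2(C) at 0.58. The mean log2 change was -0.16 ± 0.45 (SD, n = 11; exact sign-flip p = 0.268; limma, adjusted p = 0.734 over genes). The next probeset, 209293_x_at, was also lower in hypoxia in 8 of 11 lines, with a mean log2 change of -0.43 ± 0.52 (limma, unadjusted p = 0.0264, adjusted p = 0.563), but the 2 probesets had the same sign in only 7 lines. The remaining 3, 209292_at, 226933_s_at and 229386_at, had means of -0.59 ± 1.38, -0.35 ± 1.37 and -0.08 ± 1.51. The mean of 209292_at was -0.26 without SHEP21N_MYC, which was at -3.80, and that of 226933_s_at was -0.0091 without SK-N-SH, which was at -3.76. The mean of 229386_at ran from -0.23 without SHEP-2 to 0.26 without SHEP21N. The mean of the brightest probeset was -0.09 without SK-N-F1 and -0.09 without LAN-1. All 5 means of ID4 over 11 lines were below 0, but not every probeset was lower in most lines. In hypoxia 209292_at was lower in 9 of 11 lines, while 226933_s_at was higher in 6 and 229386_at in 8. The median log2 change was 0.02 for 226933_s_at and 0.34 for 229386_at. None of the 5 passed the adjusted limit.

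Read as a family, the 15 probesets held 5 that were higher in hypoxia in at least 9 of 11 lines, namely both of BHLHE40 and the brightest of BHLHE41, ID1 and ID2. Of all probesets, 4.44% were higher in that many lines. The same 5 had an unadjusted limma p under 0.05 with a higher signal, as had 3.35% of all probesets, and 1 (209293_x_at of ID4) had such a p with a lower signal, as had 4.74%. After adjustment over all probesets, none of the 15 passed. Of the 6 genes, 1 passed in the gene table, and the median log2 change of the 6 genes was 0.51, against -0.04 over all genes. These counts describe genes that were chosen with earlier results of these data known.

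**Figure D2:**
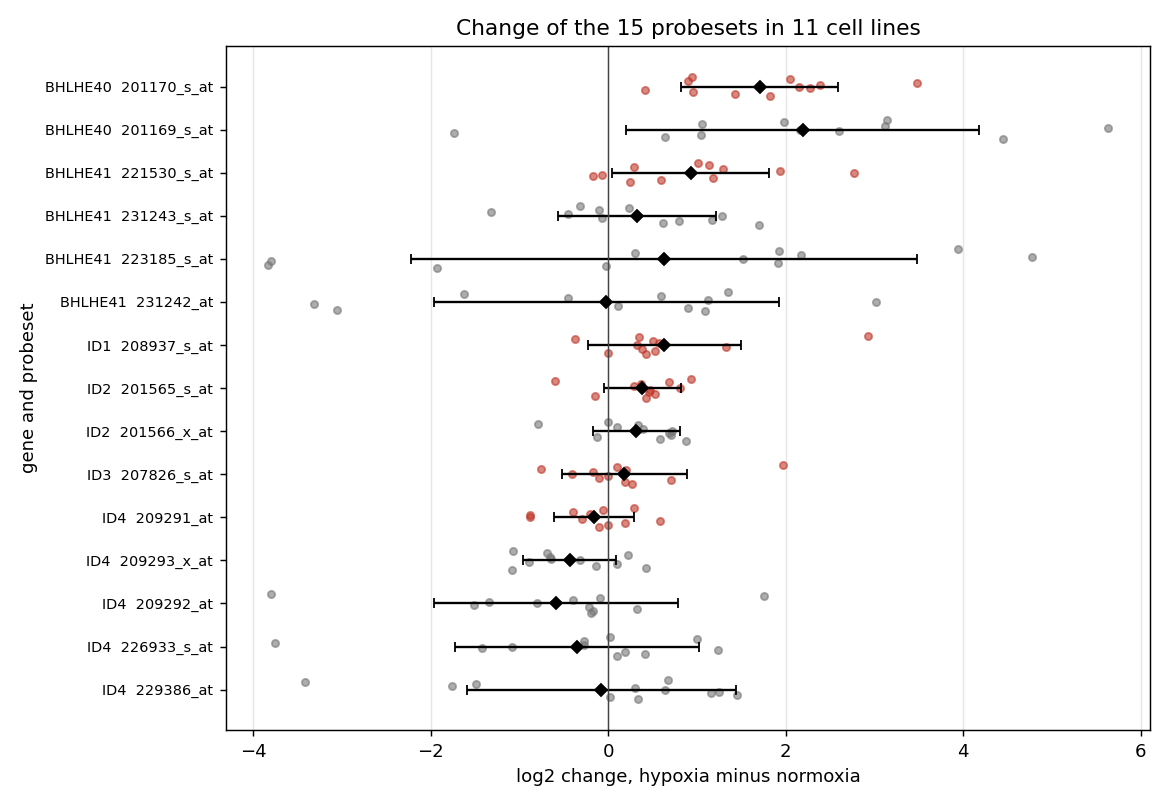
Log2 change, hypoxia minus normoxia, of each of the 15 probesets, with 1 point per cell line (red for the brightest probeset of a gene, grey for the others), the mean as a diamond and the SD over 11 lines as a bar. The points of BHLHE40 201170_s_at all lie above 0, from 0.41 to 3.48, and the dim probesets of BHLHE41 and ID4 scatter on both sides of 0.

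The response was then compared between the 3 SHEP lines and the other 8, which came from another provider. For BHLHE40 the mean log2 change was 1.32 in the SHEP lines and 1.85 in the others, a difference of -0.54 (limma interaction, p = 0.379, adjusted p = 0.806). This difference was -0.90 without SHEP21N, -0.35 without SHEP21N_MYC, -0.36 without SHEP-2 and -0.30 without SK-N-SH. For BHLHE41 it was 1.11 in the SHEP lines and 0.86 in the others (p = 0.685, adjusted p = 0.928), and the difference of 0.25 ran from 0.10 without SK-N-BE2(C) to 0.52 without SK-N-F1. For ID1 it was 1.27 in the SHEP lines and 0.39 in the others (p = 0.132, adjusted p = 0.623), and for ID3 it was 0.93 in the SHEP lines and -0.10 in the others (p = 0.0239, adjusted p = 0.446). The ID1 difference of 0.87 was 0.04 without SHEP21N_MYC and 1.33 without SHEP21N. The ID3 difference of 1.02 was 0.50 without SHEP21N_MYC and 1.44 without SHEP21N. Over all probesets 0 of 54675 passed the adjusted limit, that is 0%, and 9.94% had an unadjusted p under 0.05. Lineage and provider cannot be told apart in this comparison. The lowest signal of 3.3 belonged to the SHEP21N arrays and not to SHEP-2, whose lowest signals were 0.68 in hypoxia and 0.61 in normoxia.

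The 2 SHEP21N lines, with 1 array each per condition, are given side by side with no test. BHLHE40 had a log2 change of 0.95 in SHEP21N_MYC and 2.05 in SHEP21N without overexpression. The normoxic signal of BHLHE40 was 1311 in SHEP21N_MYC and 682 in SHEP21N, and the normoxic SHEP21N_MYC array is the one with the high 3' to 5' control ratios. The normoxic SHEP21N array had the next highest ratio for ACTB, 5.05. The lines also differ in tetracycline, given at 50 ng/mL to SHEP21N without overexpression. ID2 had a log2 change of 0.93 in SHEP21N_MYC and -0.60 in SHEP21N. MYCN was at a low signal in both lines at its probeset, and whether SHEP21N_MYC had more MYCN, as labelled, was not tested.

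More of the variance lay between lines than between conditions for each gene, though the lines outnumber the conditions. For BHLHE40 the SD of log2 level over lines was 1.64 in hypoxia and 1.97 in normoxia, close to its mean change of 1.71. The share of the variance of log2 level that lay between lines was 75.5% for BHLHE40, 94.9% for BHLHE41, 91.5% for ID1, 95.1% for ID2, 94.3% for ID3 and 97.5% for ID4, while the condition took 19.7% for BHLHE40 and at most 3.15% for the brightest probesets of the other genes. Each gene held its own order of lines. BHLHE40 ran in normoxia from SHEP-2 at 20.0 times the array median, through GI-ME-N at 17.8, ACN at 15.1, SHEP21N_MYC at 12.2, SHEP21N at 7.39, SK-N-F1 at 5.15, LAN-1 at 3.80, GI-LI-N at 3.20, IMR-32 at 1.72 and SK-N-BE2(C) at 0.936, down to SK-N-SH at 0.254. In hypoxia ACN was first at 40.4 times the median and SK-N-BE2(C) last at 1.24. Only 2 of the 10 steps between neighbouring lines in either order were larger than 0.88, the SD over lines of the within-line change. This SD is the spread of the response and not the error of a level. With 1 array per line and condition that error is unknown, so whether neighbours differ was not tested.

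BHLHE41 was highest in normoxia in GI-ME-N (23.8 times the array median) and ACN (21.2), and lowest in IMR-32 (0.0620), SK-N-SH (0.209) and GI-LI-N (0.389). ID1 was highest in GI-ME-N (236 times) and SK-N-SH (104) and lowest in ACN (2.15). ID2 was highest in LAN-1 (218 times), SK-N-BE2(C) (132.8) and SK-N-SH (93.0) and lowest in ACN (10.3), a line in which ID4 was highest (37.4 times). ID3 was highest in LAN-1 (92.1 times) and SHEP21N (86.2) and lowest in GI-LI-N (3.81), and ID4 was lowest in SHEP21N (1.43 times). The orders in hypoxia were close to these, with correlations between hypoxic and normoxic log2 levels of r = 0.890 to 0.966 over the 11 lines for the brightest probesets. Some steps between neighbouring normoxic lines were larger than the SD over lines of the within-line change, which again is not the error of a level. They numbered 5 of 10 for BHLHE41, 2 for ID1, 6 for ID2, 3 for ID3 and 5 for ID4.

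Markers of the 2 cell states known in neuroblastoma moved with the level of BHLHE40. All 9 mesenchymal markers (among them PRRX1, VIM and FN1) were above the array median in both conditions in ACN, SHEP-2, GI-ME-N, SHEP21N and SHEP21N_MYC, with summed signals from 47276 to 168586 in hypoxia and from 47290 to 153362 in normoxia. In the other 6 lines 5 to 8 of them were above it, with sums of at most 51773 in hypoxia and 42707 in normoxia. Of the 8 adrenergic markers measured (among them PHOX2A, TH and DBH), 7 or 8 were above the median in these 6 lines, 3 to 6 in the SHEP lines and GI-ME-N, and 1 in ACN, where the defining markers of adrenergic neuroblastoma were thus nearly all low. ACN was also the only line with all 3 measured Schwann cell markers above the median in both conditions. In the 5 lines with all mesenchymal markers BHLHE40 had signals of 2173 to 5326 in hypoxia and 682 to 2672 in normoxia, and in the other 6 lines 138 to 1986 in hypoxia and 20.2 to 409 in normoxia. The BHLHE40 levels of these sets of lines did not overlap within a condition, but their nearest lines were close. In hypoxia SHEP21N_MYC was at 23.5 times the array median and SK-N-F1 at 22.8. In normoxia SHEP21N was at 7.39 times and SK-N-F1 at 5.15. The signals of BHLHE41, ID1, ID2, ID3 and ID4 overlapped between these sets of lines in both conditions. For BHLHE41 in normoxia they were 183 to 2734 in the lines with all mesenchymal markers and 5.71 to 604 in the others. Of the 5 lines with all mesenchymal markers, 3 are the related SHEP lines. The log2 change of BHLHE40 was 1.25 ± 0.49 (SD, n = 5) in the 5 lines with all mesenchymal markers and 2.09 ± 1.00 (SD, n = 6) in the other 6, which overlap. The part of cell state in the levels was not tested, and a change in the share of cells of a state cannot be told apart from a change of RNA per cell in such cultures.

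Over the 11 lines the levels of BHLHE40 and ID2 ran in opposite orders, with r = -0.65 in hypoxia (Spearman rho = -0.81) and r = -0.67 in normoxia (rho = -0.78). Without the 3 SHEP lines r was -0.58 in hypoxia and -0.60 in normoxia (n = 8). BHLHE40 and BHLHE41 ran together, with r = 0.50 in hypoxia and 0.62 in normoxia. ID1 and ID2 levels correlated at r = 0.57 in hypoxia and 0.55 in normoxia, and those of ID1 and ID3 at 0.52 in hypoxia and 0.54 in normoxia. For the log2 changes, those of ID1 and ID3 had r = 0.84 (rho = 0.52), which was 0.44 without the SHEP lines. Those of BHLHE40 and ID4 had r = -0.59 (rho = -0.63), with r = -0.51 without the SHEP lines. Those of BHLHE41 and ID4 had r = -0.64 (rho = -0.45), with r = -0.79 without them. All these values rest on the brightest probeset of each gene. The changes of the other probesets correlated with those of the brightest at r = 0.02 to 0.41 for ID4 and -0.11 to 0.56 for BHLHE41. Not all pairs of members are given. These are descriptions over lines, some of which are related, and both genes of a pair come from the same arrays.

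**Figure D3:**
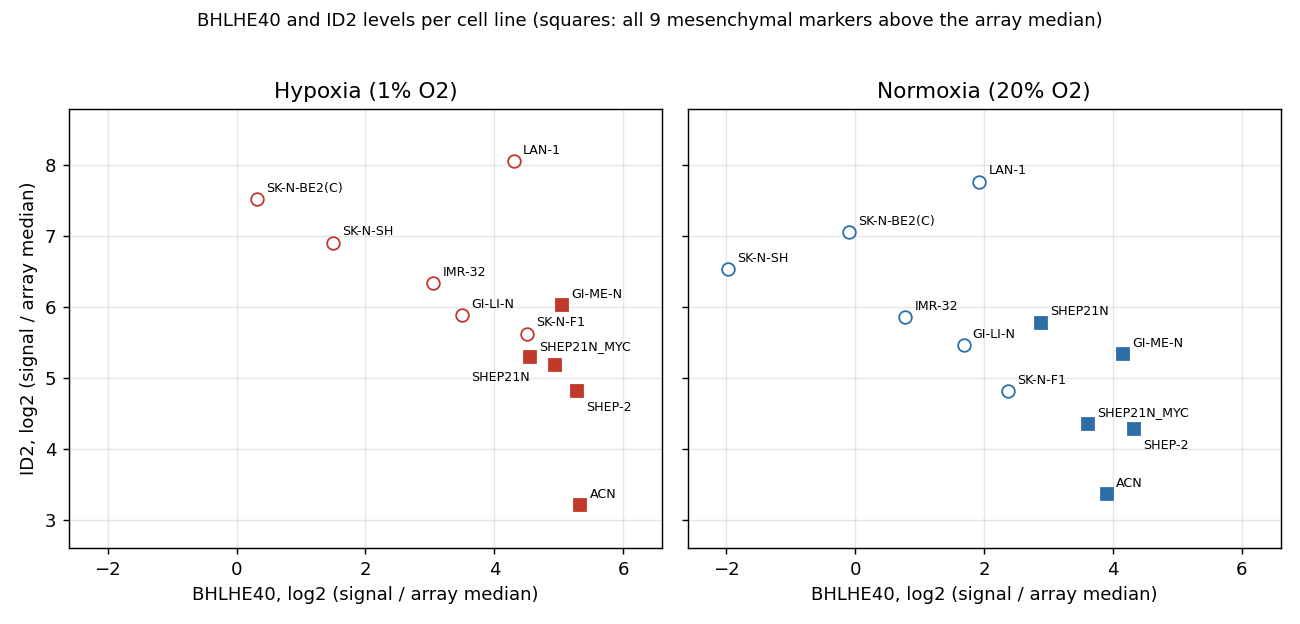
Log2 level over the array median of ID2 (vertical axis) against BHLHE40 (horizontal axis) in hypoxia (left) and normoxia (right), with 1 point per cell line and filled squares for lines with all 9 mesenchymal markers above the array median. ACN lies at the lower right in both conditions, while LAN-1 has the highest ID2 level (267 times the median in hypoxia and 218 in normoxia) at a middling BHLHE40 level.

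The genes whose normoxic levels were most like each member were ranked by Pearson r over the 11 lines among 12513 genes with a mean signal of at least 100. They were TM4SF1 (r = 0.91), IRF1 and SPX for BHLHE40, and EHBP1 (r = 0.94), OSTF1 and PLOD1 for BHLHE41. PLOD1, a lysyl hydroxylase of collagen, itself rose by 0.69 on the log2 scale in hypoxia (limma, adjusted p = 0.0266). PLOD1 is also a gene of the hypoxia signature chosen on these same arrays, so its rise is not independent evidence. The nearest genes were EEF1AKMT2, SDC2 and FSAF1 for ID1 (r up to 0.90), EEFSEC, ALG1 and FAM135A for ID2 (up to 0.92), ADI1, MBNL3 and SDC1 for ID3 (up to 0.91), and TMEM51, RAPGEF6 and BAALC for ID4 (up to 0.90). The log2 changes most like those of BHLHE40 were of TMED8 (r = 0.91), CPSF3 and ANKRD53, and none of these 3 genes passed the adjusted limit. With 11 lines and so many genes, high correlations are common, and no function is read from them.

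The other genes of the same pathways were taken from lists by role. Of all 19775 genes, 0.147% were called higher and 0.0152% lower, so a count of 0 in lists this short tells little about them. Of the 9 other Orange repressors measured (HES and HEY genes, some of them targets of Notch signalling), 0 passed the limit in either direction, with a median log2 change of -0.04. The smallest p values were those of HES5 (log2 change 0.78, adjusted p = 0.315), HEY1 (-0.18, 0.586) and HES1 (-0.22, 0.589). Of the 16 circadian clock genes, 0 passed, with a median of -0.10. Those nearest were NFIL3, a repressor at D-box elements (0.40, adjusted p = 0.292, higher in 9 of 11 lines), BMAL2 (-0.46, 0.359) and PER3 (-0.30, 0.376, lower in 10 of 11 lines). CLOCK itself had a log2 change of -0.17 and BMAL1 of -0.19. These counts and medians are over the measured genes only.

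Of the 20 E proteins and tissue bHLH factors that ID proteins bind or displace, 0 passed, with a median log2 change of -0.09. The E proteins had log2 changes of 0.04 for TCF3, 0.39 for TCF4 and -0.14 for TCF12. The smallest p values were those of NEUROG2 (-0.66, adjusted p = 0.324), with median signals of 6 in hypoxia and 9.7 in normoxia, MSC (0.91, 0.388) and NHLH1 (0.43, 0.423). Of the 26 genes of BMP and SMAD signalling, which lies upstream of the ID genes, 0 passed, with a median of -0.02. The coreceptor ENG had a log2 change of 0.71 (adjusted p = 0.333), the decoy receptor BAMBI 0.21 (0.594) and the inhibitory SMAD7 0.24 (0.622). SMAD1 was at -0.13 and SMAD5 at -0.10.

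In the HIF system 1 of 10 genes passed, while of all genes 0.147% were called higher and 0.0152% lower. EGLN1, the prolyl hydroxylase that marks HIF for degradation, rose by 0.97 on the log2 scale (limma, adjusted p = 0.0437) and was higher in hypoxia in 11 of 11 lines, with a median signal of 3409 in hypoxia and 1892 in normoxia. EGLN3, a prolyl hydroxylase of the same family, had a log2 change of 1.74, was also higher in 11 of 11 lines and missed the limit (adjusted p = 0.0840). EGLN1 and EGLN3 are also genes of the hypoxia signature chosen on these same arrays, so their direction here is not independent evidence. HIF3A was at 0.72 (adjusted p = 0.333), and the median of the list was 0.19. Over all 19775 genes the median was -0.04. Of these, 711 had an unadjusted limma p under 0.05 with a higher and 1398 with a lower signal in hypoxia.

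**Figure D4:**
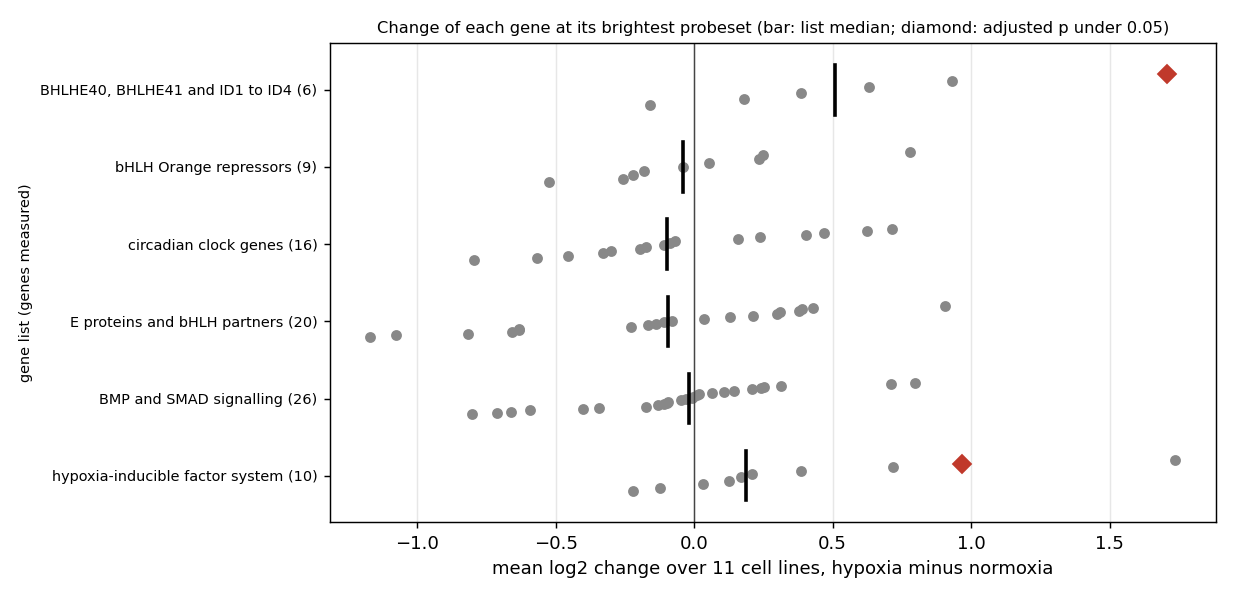
Mean log2 change over 11 lines, hypoxia minus normoxia, of each gene at its brightest probeset, with 1 point per gene, a bar at the median of each list and a diamond for genes with an adjusted p under 0.05. BHLHE40 at 1.71 and EGLN1 at 0.97 are the diamonds, and the medians of the 4 lists of bHLH, clock and BMP genes lie between -0.10 and -0.02.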

How the data were processed

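RNA of 11 cell lines in both conditions had been hybridised to 22 arrays. The deposited intensity values came from Microarray Suite (MAS5), which the authors ran on each array with scaling to a common average. They are on a linear scale and carry no detection calls.  MAS5 subtracts the mismatch signal, so ratios of dim probesets scatter widely.

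For every array, signals were set relative to that array's median (69.4 to 133.6) and log2 transformed, with no filter on low signals. Of 54675 probesets, 41097 name 1 gene in the platform annotation, 1801 several and 11777 none. The gene table represented each of 19775 genes by its brightest probeset (mean log2 signal). Differences were fitted on all rows with limma 3.58.1 (R 4.3.3). Cell line was the block, and p values were adjusted after Benjamini and Hochberg, with a limit of 0.05. Pairing came from the cell line: the hypoxic array correlated best with the normoxic array of its own line in 10 of 11 lines, by deviations from the condition means (lowest r 0.436), SHEP21N_MYC being the exception. The difference between the 3 SHEP and the other 8 lines was an interaction term. Exact two-sided sign-flip permutation tests used the 11 within-line differences. They treat the related SHEP lines, among them both lines of the clone SHEP21N, as independent. They do the same with the closely alike SK-N-SH, GI-LI-N and IMR-32, and both can make p too small. The lines stand in for separate cultures, and nothing states repeated cultures of a line, so the number of lines limits the precision. Motifs and correlations were computed in Python 3.11.15 with numpy 2.4.6 and pandas. The limma steps were tested on simulated data.

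All member probesets are named. From each list, genes past the limit are named and otherwise the 3 with the smallest p, and for each member the 3 genes most like it. E proteins, CLOCK, BMAL1, SMAD1 and SMAD5 were named in addition after their values were seen. The members and the lists (Orange repressors, clock genes, E proteins and partners, BMP and SMAD signalling, HIF system, and adrenergic, mesenchymal and Schwann cell markers) were chosen with earlier results of these data known. Alternatives were other normalizations, floors, filters and tests, averaged or left-out lines and other probesets. Tumor profiles were not analysed here.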

Additional observations from a re-analysis of the deposited data

Results flagged for a closer look

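The ID2 probeset 201566_x_at had log2 changes on opposite sides of 0 in the SHEP lines and the other lines. The changes were -0.13 in SHEP-2, -0.79 in SHEP21N and -0.0076 in SHEP21N_MYC, and they ran from 0.10 in SK-N-SH to 0.87 in GI-LI-N in the other 8 lines. The mean was -0.31 in the 3 SHEP lines and 0.55 in the other 8, a difference of -0.86 (limma interaction, p = 0.0091), which did not pass the adjusted limit (adjusted p = 0.403). The brightest ID2 probeset, 201565_s_at, had a difference of -0.13 (p = 0.705), with log2 changes of 0.53 in SHEP-2, -0.60 in SHEP21N and 0.93 in SHEP21N_MYC. The probesets of ID2 had opposite signs in SHEP-2, in SHEP21N_MYC and in ACN, where 201565_s_at was at -0.15 and 201566_x_at at 0.59. The spread of a single array pair was not tested, because no line has replicate arrays.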

How the results depend on the processing

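The log2 change of each of the 6 genes was recomputed under 20 other settings of the gene table, and all kept their direction except ID3, which was at -0.009 with both SHEP21N lines left out. BHLHE40 passed the adjusted limit in 10 of the 20 settings, and the other 5 genes in none. BHLHE40 was at 1.71 without the cell line block (no replicate block, adjusted p = 1.00), the setting that leaves the differences between lines in the error, at 1.80 with the 3 SHEP lines averaged, at 1.53 with SK-N-SH, GI-LI-N and IMR-32 averaged and at 1.76 with both SHEP21N lines left out. It was not past the limit in any of these 4, nor at 1.95 as the mean of its probesets or at 2.19 by 201169_s_at. Leaving out each line in turn gave 1.53 to 1.84. BHLHE41 was at -0.0226 by 231242_at. The number of member genes past the limit, 1, was 0 in these 4 settings and 0 to 1 over the leave-one-out fits. The number of member probesets past it, 0, was 1 with the values as deposited, with quantile normalization and with a mean signal of at least 100, was 2 with signals below 50 set to 50, and was 0 to 1 over the leave-one-out fits.

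Among all probesets 25 were called higher and 1 lower. The counts were 69 higher and 25 lower with the floor of 50, 72 and 23 with the filter of 100 on fewer probesets, 9 and 0 without the cell line block, 33 and 26 with a paired t-test after Benjamini-Hochberg over all probesets (the methods name a t-test with this correction after a 2-fold selection and do not state pairing), 28 and 0 with quantile normalization, 9 and 0 with the SHEP lines averaged, 0 and 0 with SK-N-SH, GI-LI-N and IMR-32 averaged, and 12 and 0 without both SHEP21N lines. They were 8 to 24 higher and 0 lower over the leave-one-out fits. The SHEP difference of ID2, -0.13, was -0.45 to 0.31 over the leave-one-out fits, positive only without SHEP21N. The interaction called 0 probesets in limma, but 20 higher and 12 lower with the floor of 50, 70 and 33 without SHEP-2, 14 and 11 without SHEP21N, 6 and 5 without SHEP21N_MYC and 5 and 2 without ACN, with no member probeset among them. For these moves the cause was not tested. The 3 dimmer probesets of BHLHE41 and 209292_at, 226933_s_at and 229386_at of ID4 were above the array median on at most 6 of 11 arrays of a condition.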

Other observations

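Neighbours of ID2 that the rule left out can be given as values. Probeset 213931_at, which names both ID2B and ID2, had a mean log2 change of 0.12 ± 1.08 (SD, n = 11; limma, adjusted p = 0.942), with a median signal of 190 in hypoxia and 165 in normoxia. Probeset 210911_at, which names ID2B, had a mean log2 change of -0.43 ± 1.72 and was higher in 4 of 11 lines (adjusted p = 0.846), with a median signal of 39.6 in hypoxia and 48.0 in normoxia. The antisense gene ID2-AS1 had a mean log2 change of 0.61 ± 1.08 at 229756_at (higher in 7 of 11 lines, adjusted p = 0.639) and of 0.06 ± 0.57 at 236719_at (higher in 6 of 11 lines, adjusted p = 0.956).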
